A study of Mus musculus with 8 samples.

Results

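The MYC, MAX and MXD network was followed in mouse embryonic stem cells (ESCs) through the RNA levels of 9 genes, Myc, Mycn, Max, Mxd1, Mxd3, Mxd4, Mxi1, Mnt and Mga. They were chosen by name, as the genes whose symbol equals a listed member, out of 38991 genes in the deposited values, and all 9 were found. Cells of strain 129 carrying a destabilised GFP reporter for Rex1 (the RGd2, or Rex1GFPd2, line) all began in 2i, where they spent 6 passages. They were then split into 4 groups and grown for 5 more, to passage 11, without serum in N2B27 on gelatin. The groups differed in which of 3 additives they received: LIF, a cytokine that activates STAT3, CH (CHIR99021, 3 µM), which blocks GSK3, and PD (PD0325901, 1 µM), which blocks MEK. The 4 groups were 2i+LIF (CH, PD and LIF), 2i (CH and PD without LIF), LIF+PD (without CH) and CH+LIF (without PD), with 2 cultures each, 8 in all. Each additive is thus absent from 1 group and present in the other 3, and no group lacks all of them. All cultures came from a single reporter line, and no source says that the replicates had separate origins, so the p-values measure only the spread between these cultures, which may be technical.

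MYC and MYCN are basic helix-loop-helix leucine zipper proteins that bind DNA only as dimers with MAX, at the E-box CACGTG, and activate genes for ribosome production, nucleotide synthesis and growth. MXD1, MXD3, MXD4, MXI1 and MNT compete for MAX and bring the SIN3 and histone deacetylase corepressors to the same sites. MGA also pairs with MAX, within the Polycomb complex PRC1.6, which keeps germline genes silent in ESCs. The 3 additives are known to meet this network at several points: Myc is a classical target of LIF/STAT3, of β-catenin and of MAPK signalling, and GSK3 marks the MYC and MYCN proteins for destruction by the ubiquitin ligase FBXW7. RNA levels show nothing of that last, protein-level control.

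Promoter stretches are printed for Mycn and Mxd4, the members that, with Myc, differed most between the groups, and for Mnt, the most abundant MXD-type member. They come from RefSeq windows on GRCm38.p6, each of 250 bases before and 50 after a transcript start. Only bases outside annotated exons are shown, 5′ to 3′ on the strand of the gene. Capitals mark the motif matches, which are CACGTG (E-box) in Mxd4 and Mnt and TTTGGCGC or TTTCGCGC on either strand (E2F motif) in Mycn.
Mycn, 172 bases, chr12:12941915-12942086, minus strand: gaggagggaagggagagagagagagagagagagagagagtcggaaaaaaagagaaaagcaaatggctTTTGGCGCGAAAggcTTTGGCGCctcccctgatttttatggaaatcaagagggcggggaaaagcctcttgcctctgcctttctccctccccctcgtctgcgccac
Mxd4, 240 bases, chr5:34187721-34187960, minus strand: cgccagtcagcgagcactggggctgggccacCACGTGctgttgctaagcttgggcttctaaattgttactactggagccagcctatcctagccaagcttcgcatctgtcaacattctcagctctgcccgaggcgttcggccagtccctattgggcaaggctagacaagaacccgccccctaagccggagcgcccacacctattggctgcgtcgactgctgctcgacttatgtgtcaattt
Mnt, 246 bases, chr11:74830674-74830919, plus strand: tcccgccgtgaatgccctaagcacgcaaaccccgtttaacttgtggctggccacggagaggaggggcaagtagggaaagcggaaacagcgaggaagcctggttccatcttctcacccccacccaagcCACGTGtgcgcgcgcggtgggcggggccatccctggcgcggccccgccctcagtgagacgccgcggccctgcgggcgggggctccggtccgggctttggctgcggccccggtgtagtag

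The Mycn stretch holds 3 E2F matches, with first bases at -183, -179 and -168 from the RefSeq start, the first and second overlapping. The letters TTTGGCGC or TTTCGCGC, on either strand, occur in 0.814% of the 32817 windows and occur at least 2 times in 0.0244%. The E-box lies at -219 in Mxd4 and at -123 in Mnt, and in Max it spans the start itself (first base at -3). Of the 10 windows matched to 8 of the members (Mxi1 has 3), 3 hold an E-box, against 7.15% of all windows, and 1 holds the E2F letters. None holds CTTTGAT or CTTTGTT (TCF, in 9.34% of windows) or TTCNNNGAA (STAT, in 8.29%). Myc has no window in this set, so its promoter was not searched for any of the motifs. The motifs were chosen with these sequences in view, and a match in letters is a description that says nothing of binding.

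RNA levels are given as FPKM, read numbers divided by transcript length and library size, so that different genes can be set side by side. A readout gene of each additive differed in the group that lacks it. Socs3, a feedback inhibitor induced by LIF, had an FPKM of 2.59 and 1.29 in 2i against 63.9 to 119 in the 6 cultures with LIF. Axin2, a β-catenin target, was at 1.85 and 2.47 in LIF+PD against 59.4 to 68.4 with CH. Dusp6, an ERK phosphatase induced by ERK, was at 26.5 and 32.3 in CH+LIF against 3.55 to 6.86 with PD. The naive pluripotency factors Pou5f1 (1625 to 2269) and Nanog (283 to 549) were high in all cultures, as were Zfp42 (190.3 to 259.7) and Esrrb (155 to 243). Within its range, Nanog was lowest in CH+LIF, at 305 and 283 against 409 to 549 in the other 6 cultures. Among 6 markers of formative or lineage-committed cells, Fgf5, Gata6, Sox17 and Sox1 did not exceed an FPKM of 1.83 in any culture. The mesoderm factor T ranged from 0.161 in LIF+PD to 36.3 in CH+LIF, and the trophectoderm factor Cdx2 from 0.0433 in LIF+PD to 12.2 in 2i. Replicate correlations across genes were 0.974 to 0.983. Replicate 1 of 2i had a relative depth of 0.500, where the other cultures lay between 0.905 and 1.18.

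All 9 members were among the 12927 genes kept for testing, which reached an FPKM of 1 in 2 or more cultures. Differences are log2 fold changes on the log2(FPKM + 1) scale, which understates changes at low FPKM. They were tested with limma across all genes tested and called at a Benjamini-Hochberg adjusted p below 0.05, with n = 2 per group. Between 2i and 2i+LIF, limma called 0 of 9 members, with 3 (Mycn, Mxd1 and Mga) at an unadjusted p below 0.05, while 18.6% of all genes tested were called. Of the 9, 3 were called between LIF+PD and 2i+LIF (background 25.2%) and 2 between CH+LIF and 2i+LIF (25.4%). In the comparisons among the groups with 2 additives, 1 was called between LIF+PD and 2i (25.1%), 3 between CH+LIF and 2i (23.9%) and 4 between CH+LIF and LIF+PD (30.4%). Beside these background shares the counts are no result about the network as a whole, and the genes are described singly below. How often groups fail to overlap among all genes was not counted. Overlap is therefore given only to describe each gene. In bulk RNA, fewer cells that express a gene and less RNA per cell cannot be told apart.

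**Figure D1:**
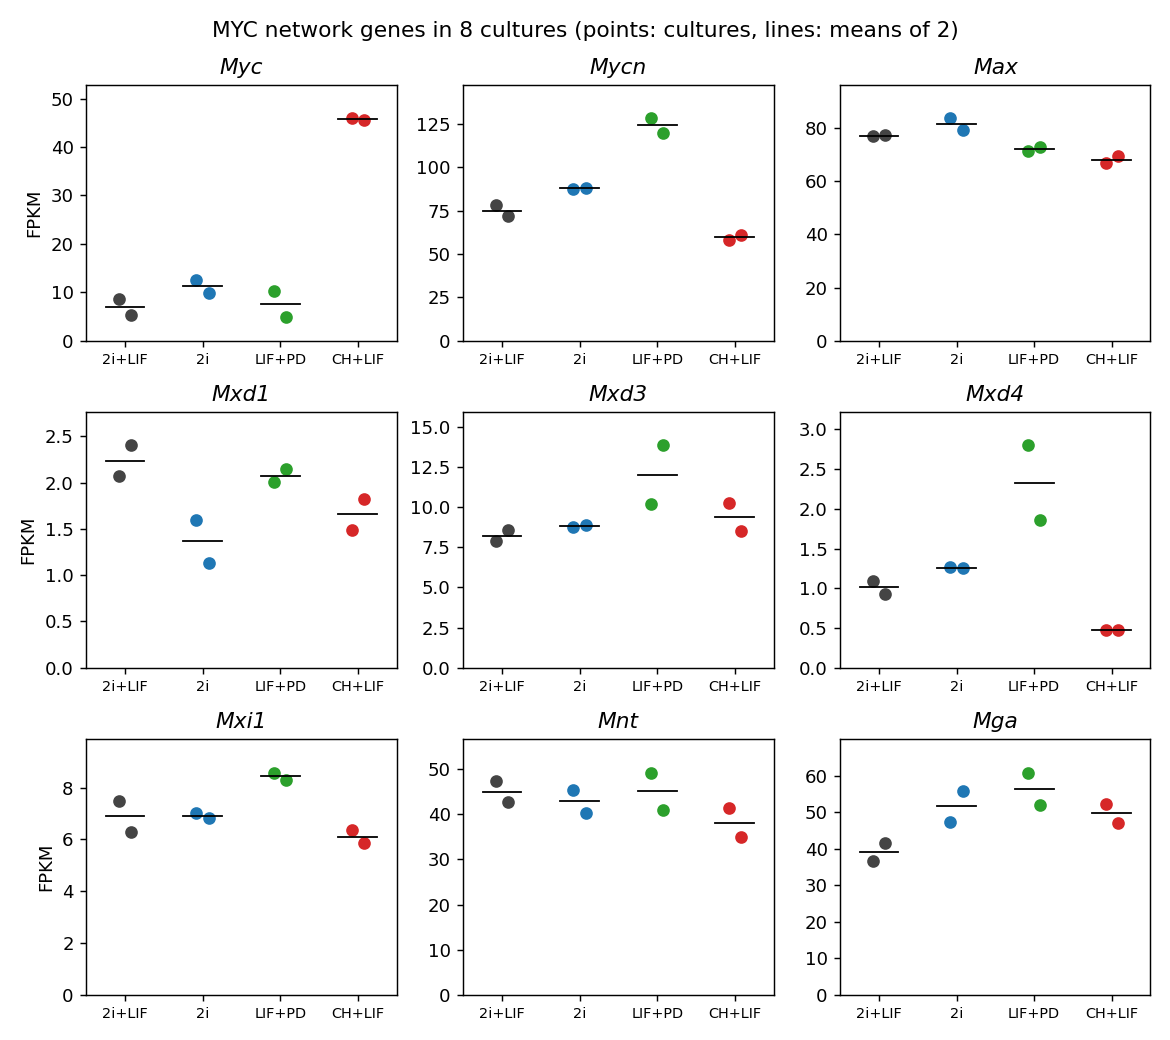
FPKM of the 9 network genes (vertical axes from 0, each with its own scale) in the 2 cultures (points) of each of the 4 groups, with the group mean as a line. Both CH+LIF cultures stand far above the rest for Myc (45.6 and 45.9), and the LIF+PD cultures are highest for Mycn (120 and 128) and Mxd4 (1.85 and 2.80), while Max and Mnt stay within narrow ranges.

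Myc (ENSMUSG00000022346, chromosome 15, 61985391 to 61990374, plus strand, mm10), the founding member, was several times higher in CH+LIF than in any group with the MEK inhibitor. Its FPKM was 45.9 and 45.6 in CH+LIF, 12.5 and 9.89 in 2i, 10.2 and 4.85 in LIF+PD, and 8.61 and 5.31 in 2i+LIF. The CH+LIF cultures lay above all 6 others, and the ranges of the remaining groups overlapped except those of 2i and 2i+LIF. Mean Myc FPKM in CH+LIF was 6.58-fold that in 2i+LIF, a log2 fold change of 2.59 ± 0.32 (SE, limma adjusted p = 0.00235). It was 4.09-fold that in 2i (1.95 on the log2 scale, limma adjusted p = 0.00632) and 6.06-fold that in LIF+PD (2.53, limma adjusted p = 0.00154). These 3 calls held in all 18 alternative settings. The 3 groups with PD did not pass the test against each other. Without LIF (2i against 2i+LIF) the log2 difference of Myc was 0.64, with a 95% interval from -0.12 to 1.39, and without CH (LIF+PD against 2i+LIF) it was 0.06, from -0.70 to 0.81. Between LIF+PD and 2i it was -0.58, from -1.33 to 0.18, and it passed only when replicate 1 of LIF+PD was left out (-1.05, limma adjusted p = 0.0470). The CH+LIF cultures, with the high Myc level, also had the highest levels of T (36.3 and 18.5) and the lowest of Nanog (305 and 283). The part of either in the result was not tested.

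Mycn (ENSMUSG00000037169, chromosome 12, 12936096 to 12941914, minus strand), the paralogue that ESCs express most, went the other way. Its FPKM was 128 and 120 in LIF+PD, 87.7 and 88.2 in 2i, 78.4 and 71.8 in 2i+LIF and 58.2 and 61.0 in CH+LIF. The 4 groups did not overlap, in the order LIF+PD, 2i, 2i+LIF, CH+LIF. Mycn was highest in the only group without CH, 1.65-fold its mean FPKM in 2i+LIF (log2 fold change 0.72 ± 0.080 SE, limma adjusted p = 0.00114). It was also higher in LIF+PD than in 2i (0.49, limma adjusted p = 0.00496). In CH+LIF, Mycn was lower than in 2i (-0.55, limma adjusted p = 0.00384) and lower than in LIF+PD (-1.05, limma adjusted p = 0.000202), where its mean FPKM was 2.09-fold higher. These 4 calls held in all 18 alternative settings. The smaller decrease in CH+LIF against 2i+LIF (-0.33, limma adjusted p = 0.0250) was lost after rescaling to TPM (-0.13, limma adjusted p = 0.343), with no mean-variance trend (limma adjusted p = 0.0535), with only the 2 groups fitted (limma adjusted p = 0.0575) and without any 1 of the 4 cultures compared, with limma adjusted p-values between 0.0525 and 0.132. The neighbours 2i and 2i+LIF differed by 0.23 (95% interval 0.04 to 0.42) and did not pass (limma adjusted p = 0.0952).

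Taken as a sum of FPKM, Myc and Mycn together reached 139 and 125 in LIF+PD, 104 and 107 in CH+LIF, 100.1 and 98.1 in 2i and 87.0 and 77.1 in 2i+LIF. The sum thus varied less than Myc, and its make-up differed. Myc gave 44.1% and 42.8% of the sum in CH+LIF, 12.5% and 10.1% in 2i, 9.90% and 6.88% in 2i+LIF, and 7.39% and 3.88% in LIF+PD. Mycn was the larger of the pair in all 8 cultures, including both of CH+LIF. The MXD-type members and Mnt summed to between 51.5 and 72.8, with Mnt alone at 61.0% to 71.8% of it. The ratio of the Myc and Mycn sum to the MXD and MNT sum was 1.29 ± 0.040 (SD, n = 2) in 2i+LIF, 1.62 ± 0.081 in 2i, 1.88 ± 0.028 in LIF+PD and 1.90 ± 0.23 in CH+LIF. The ratios in CH+LIF and LIF+PD overlapped, whereas the Myc shares behind them did not. Mycl, a further paralogue outside the listed members, is left out of the sum and the ratio. Its FPKM was above that of Myc in 2i+LIF (18.1 and 15.8) and LIF+PD (14.6 and 21.4). In 2i and CH+LIF it was below Myc.

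**Figure D2:**
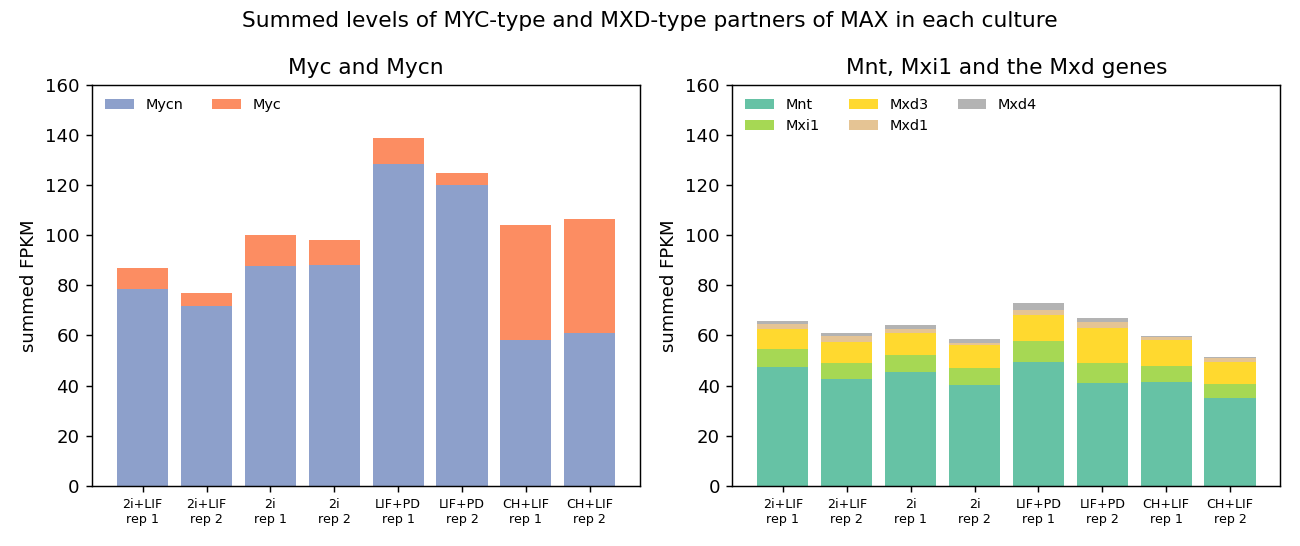
Stacked FPKM of Myc and Mycn (left) and of Mnt, Mxi1, Mxd3, Mxd1 and Mxd4 (right) in each of the 8 cultures, on the same vertical axis from 0. Myc gives more than 42% of the left-hand bars in both CH+LIF cultures and at most 12.5% elsewhere, and Mnt is the largest part of every right-hand bar.

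Max (ENSMUSG00000059436, chromosome 12), the shared partner of the other members, had nearly the same level in all groups. Its FPKM was 83.8 and 79.5 in 2i, 77.1 and 77.5 in 2i+LIF, 71.4 and 72.9 in LIF+PD, and 66.8 and 69.7 in CH+LIF. The groups did not overlap, although the highest mean was only 1.20-fold the lowest. The single Max call, lower in CH+LIF than in 2i (-0.26, limma adjusted p = 0.0410), was lost in 12 of 18 alternative settings, among them TPM (-0.12, limma adjusted p = 0.371) and the removal of any 1 of the 8 cultures, with limma adjusted p-values between 0.0679 and 0.169. Against 2i+LIF the sign of the Max difference in LIF+PD and in CH+LIF turned from negative to positive after rescaling to TPM, and neither passed on either scale. Max was below the summed FPKM of Myc and Mycn in every culture except replicate 2 of 2i+LIF, where Max was at 77.5 and the sum at 77.1.

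Among the MXD-type repressors, Mxd4 had the widest relative range and Mnt the narrowest. Mxd4 (ENSMUSG00000037235, chromosome 5), a MAX partner typical of cells that leave the cycle, had an FPKM of 2.80 and 1.85 in LIF+PD, 1.26 and 1.25 in 2i, 1.09 and 0.929 in 2i+LIF, and 0.480 and 0.473 in CH+LIF. The groups did not overlap. Both CH+LIF values were below an FPKM of 1, with deposited confidence bounds of 0.146 to 0.816 and 0.226 to 0.737. Folds against CH+LIF are therefore uncertain. The mean FPKM in LIF+PD was 4.88-fold that in CH+LIF (CH+LIF against LIF+PD, -1.16 on the log2 scale, limma adjusted p = 0.00390), a call that held in all 17 settings that kept Mxd4. Its rise in LIF+PD against 2i+LIF (0.71, limma adjusted p = 0.0297) was lost in 5 of 17 settings. Those were quantile normalization, a fit of the compared groups alone, and the removal of either 2i+LIF culture (limma adjusted p = 0.0934 and 0.130) or of replicate 1 of LIF+PD (limma adjusted p = 0.169). The Mxd4 decrease in CH+LIF against 2i was at the edge (-0.61, limma adjusted p = 0.0507). Mxd4 shares 514 exon bases with Gm42846, an antisense gene on the opposite strand, and whether the FPKM values used strand is not given in the sources used here.

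Mxi1 (ENSMUSG00000025025, chromosome 19), also known as MXD2, was highest in LIF+PD. Its FPKM there was 8.58 and 8.31, above all other cultures, which ranged from 5.86 to 7.50. Only the difference between CH+LIF and LIF+PD passed (-0.41, limma adjusted p = 0.0395), and it was lost in 10 of 18 settings, including without any 1 of the 4 cultures compared (limma adjusted p-values between 0.0957 and 0.154). Mxi1 shares 194 exon bases with Gm10197 on the opposite strand, whose own FPKM was 19.3 to 85.7.

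Mxd3 and Mxd1 were called in none of the 6 comparisons. Mxd3 (chromosome 13), the family member seen in cycling cells, had an FPKM of 10.2 and 13.8 in LIF+PD, 10.2 and 8.50 in CH+LIF, 8.79 and 8.91 in 2i, and 7.86 and 8.58 in 2i+LIF. Its difference between LIF+PD and 2i+LIF (0.49, limma adjusted p = 0.0644) passed only after rescaling to TPM (0.61, limma adjusted p = 0.0388) or without replicate 1 of LIF+PD (0.69, limma adjusted p = 0.0382). Exons of Mxd3 and of the mitochondrial gene Prelid1, on opposite strands, share 105 bases, and Prelid1 had an FPKM of 272 to 354. Mxd1 (chromosome 6), linked to terminal differentiation, was low throughout. Its FPKM was 2.07 and 2.40 in 2i+LIF, 2.01 and 2.14 in LIF+PD, 1.49 and 1.83 in CH+LIF, and 1.599 and 1.13 in 2i. The groups with the lowest and highest levels, 2i and 2i+LIF, did not overlap. The widest Mxd1 difference was the lower level in 2i than in 2i+LIF (-0.46, 95% interval -0.85 to -0.06, limma adjusted p = 0.104).

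Mnt (ENSMUSG00000000282, chromosome 11), the broadly expressed antagonist of MYC, was called in none of the comparisons either. Its FPKM was 49.2 and 40.9 in LIF+PD, 47.3 and 42.7 in 2i+LIF, 45.4 and 40.3 in 2i, and 41.4 and 34.9 in CH+LIF. Each group overlapped its neighbour in this order, and the highest mean was 1.18-fold the lowest. The widest Mnt difference, CH+LIF against 2i+LIF, was -0.23 with a 95% interval from -0.54 to 0.07.

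Mga (ENSMUSG00000033943, chromosome 2), the MAX partner of PRC1.6, was lowest with all additives present. Its FPKM was 36.7 and 41.6 in 2i+LIF, 47.4 and 55.7 in 2i, 60.8 and 52.0 in LIF+PD, and 52.3 and 47.0 in CH+LIF. Both 2i+LIF cultures lay below the other 6, which overlapped with each other. Only LIF+PD against 2i+LIF passed (0.52, limma adjusted p = 0.0241), and the call was lost without either 2i+LIF culture (limma adjusted p = 0.127 and 0.0539) or without replicate 1 of LIF+PD (limma adjusted p = 0.128). In 2i (0.39, limma adjusted p = 0.0736) and CH+LIF (0.34, limma adjusted p = 0.0909) the differences from 2i+LIF did not pass, the latter passing after rescaling to TPM (0.54, limma adjusted p = 0.0324). These comparisons share the 2i+LIF cultures.

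**Figure D3:**
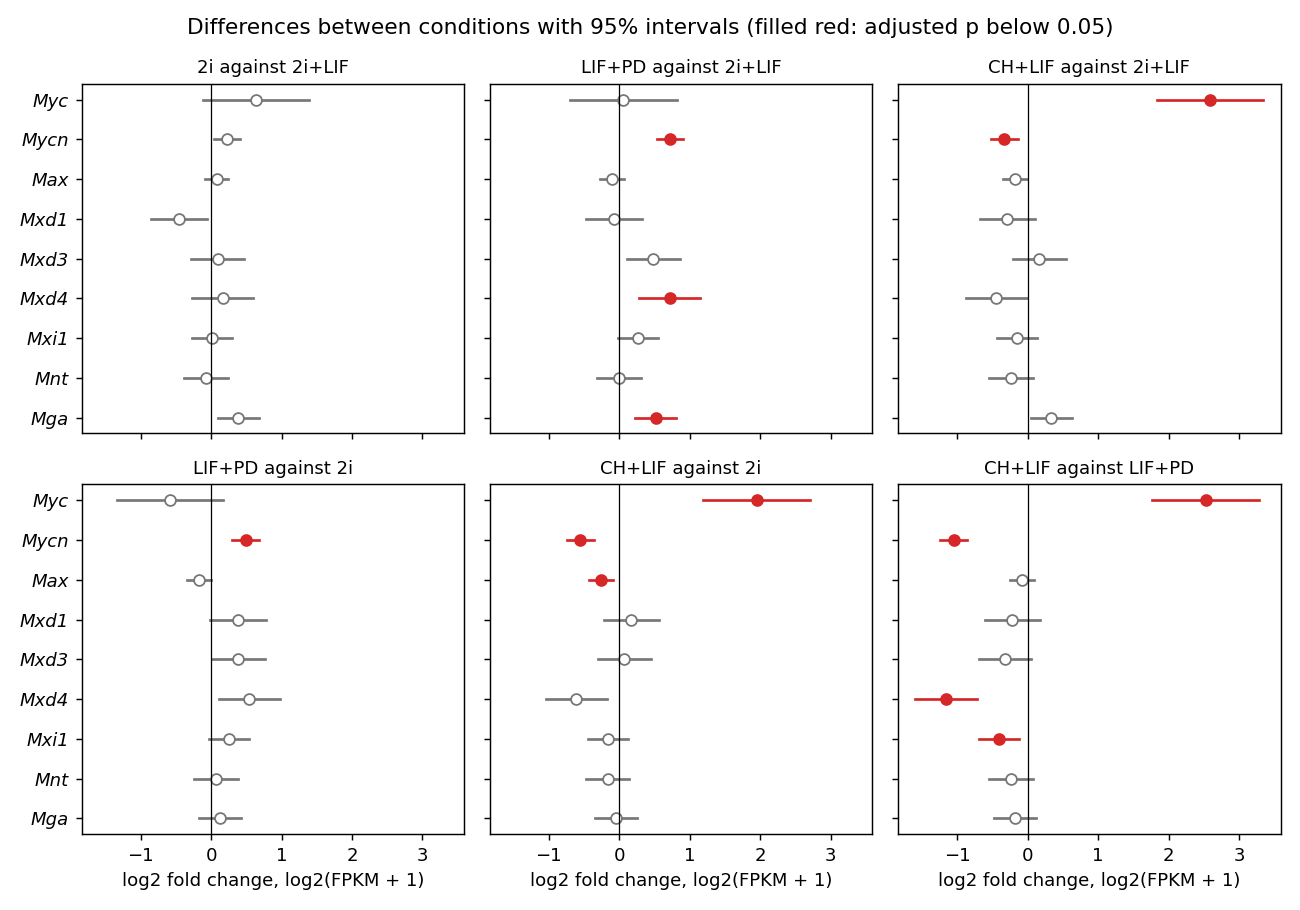
Log2 fold change on the log2(FPKM + 1) scale (horizontal axes) of each network gene in the 6 comparisons, with the 95% interval from limma as a line and filled red points where the adjusted p was below 0.05. Myc lies far to the right in the 3 comparisons of CH+LIF (1.95 to 2.59), where Mycn lies to the left (-0.33 to -1.05), and no gene is filled between 2i and 2i+LIF.

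Genes that MYC is known to activate were taken as a list of 35, mostly for ribosome production, nucleotide synthesis and the cell cycle, of which 34 were tested. In CH+LIF against 2i+LIF, 13 of the 34 were higher and 0 lower, beside 12.2% higher and 13.3% lower among all genes tested. The list's median log2 fold change was 0.21, beside 0.0070 for all genes. The 2 largest rises were those of Ddx21, an RNA helicase of ribosome production, and Odc1, which makes polyamines. Ddx21 had an FPKM of 153 and 130.1 in CH+LIF against 84.0 and 75.5 in 2i+LIF (0.82, limma adjusted p = 0.00282). Odc1 was at 282 and 242 against 164 and 151 (0.73, limma adjusted p = 0.00550). For both genes, both CH+LIF cultures lay above both 2i+LIF cultures, and the calls held in all 18 settings. Odc1 was also above 2i+LIF in the groups with low Myc, at 240 and 201 in 2i (0.48) and 233 and 233 in LIF+PD (0.56). Ddx21 was at 85.4 and 86.4 in 2i and at 96.6 and 86.5 in LIF+PD. The other 11 that rose, named here after their values were seen, were Ncl, Nolc1, Rrp12, Wdr43, Polr1b, Gnl3 and Pa2g4 of the nucleolus, Shmt2, Ppat and Slc19a1 of folate and purine metabolism, and the chaperone Hspd1. The count fell to 3 without replicate 2 of 2i+LIF, to 3 without replicate 1 of CH+LIF and to 8 without replicate 1 of 2i+LIF, with 5.61%, 4.85% and 5.64% of all genes higher in these fits. After rescaling to TPM it rose to 22, beside 22.4% of all genes.

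The other comparisons called fewer of the 34 genes. In 2i against 2i+LIF, 3 were higher and 0 lower (background 9.77% and 8.86%). The 3 fell without either 2i+LIF culture, replicate 1 of 2i or either LIF+PD culture, as did the share of all genes. Among the 3 was Cad, the first enzyme of pyrimidine synthesis, at 217 and 257 against 149 and 140 (0.71, limma adjusted p = 0.00346). In LIF+PD against 2i+LIF, 6 were higher and 2 lower (14.8% and 10.4%). The 6 fell with any 1 culture left out, most without replicate 2 of 2i+LIF or either LIF+PD culture. In the latter fits the share of all genes fell as well. With TPM the 6 rose to 12, beside 20.1% of all genes. The 2 rose without either 2i culture and fell without either 2i+LIF culture or replicate 2 of LIF+PD. In this comparison Polr1b, a subunit of RNA polymerase I, was at 53.9 and 55.7 against 36.8 and 36.3 (0.57, limma adjusted p = 0.00308). The G1 kinase Cdk4 was lower, at 839 and 855 against 1253 and 1187 (-0.53, limma adjusted p = 0.00420). In the comparisons of CH+LIF with 2i and with LIF+PD, 6 and 8 were higher and 1 was lower in each, beside 10.6% and 12.6% higher among all genes. With TPM these counts of higher genes rose to 19 and 14, beside 15.9% and 14.5% of all genes. Both rose without replicate 2 of CH+LIF. The 6 fell without any other culture, and the 8 fell without replicate 1 of CH+LIF or either culture of LIF+PD or 2i+LIF. The shares of all genes fell in all of these fits. In LIF+PD against 2i, 3 were higher and 4 lower, beside 14.0% and 11.1%. Both counts fell without any single culture of 2i or LIF+PD, and the 3 also without any culture of the other groups. The shares of all genes fell there too. The list medians in 2i and LIF+PD against 2i+LIF, 0.032 and 0.058, were close to those of all genes, 0.035 and 0.034. Several of these genes, such as Hspd1 and Nme1, have near-identical copies in the genome, which makes their values from uniquely mapped reads less certain.

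**Figure D4:**
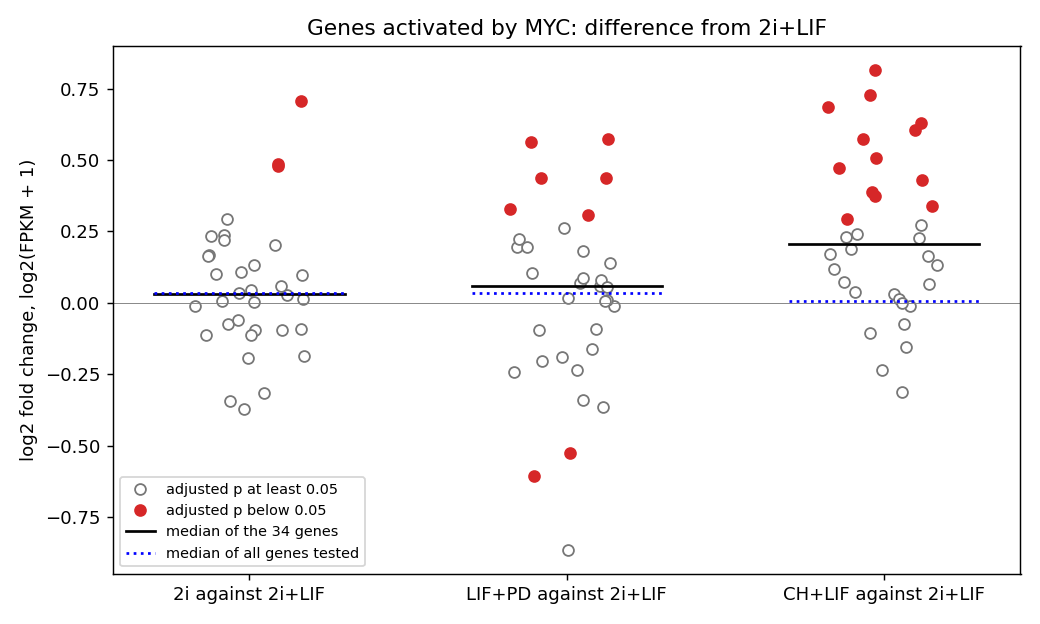
Log2 fold change on the log2(FPKM + 1) scale (vertical axis) of the 34 tested genes activated by MYC, 1 point per gene and spread sideways for legibility, in 2i, LIF+PD and CH+LIF against 2i+LIF. Filled red points passed the test (3, 8 and 13 genes), and the list median (solid line) is 0.21 in CH+LIF, beside 0.0070 for all genes (dotted line).

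Genes that MYC is known to repress, among them inhibitors of the cell cycle, did not move in a single direction. Of 7 listed, 6 were tested. In CH+LIF against 2i+LIF, 2 were higher and 3 lower (background 12.2% and 13.3%). In 2i (9.77% and 8.86%) and in LIF+PD (14.8% and 10.4%), 2 were higher and 1 lower. Against 2i, 1 was higher and 4 lower in CH+LIF (10.6% and 13.3%), and in LIF+PD 2 and 1 (14.0% and 11.1%). Against LIF+PD, 2 were higher and 4 lower in CH+LIF (12.6% and 17.8%). The list medians in CH+LIF were -0.47 against 2i+LIF, -0.56 against 2i and -0.85 against LIF+PD. Those of all genes were 0.0070, -0.026 and -0.014. In 2i and LIF+PD against 2i+LIF the list medians were 0.22 and 0.36. The CDK inhibitor Cdkn1a (p21) had an FPKM of 56.8 and 62.3 in CH+LIF, 33.9 and 33.6 in LIF+PD, 102 and 92.5 in 2i, and 101 and 106 in 2i+LIF. It was lower in CH+LIF (-0.78, limma adjusted p = 0.00156) and lower still in LIF+PD (-1.58, limma adjusted p = 8.98e-05) than in 2i+LIF. Cdkn1b (p27) was lower in CH+LIF (15.3 against 27.9 in mean FPKM, -0.83, limma adjusted p = 0.00318). The stress gene Gadd45a was higher than in 2i+LIF in every other group, with 7.09 and 7.28 in 2i+LIF, 19.8 and 22.6 in CH+LIF, 31.2 and 26.1 in 2i and 44.8 and 42.6 in LIF+PD. Ndrg2 was higher in CH+LIF (8.86 against 2.38 in mean FPKM, 1.55, limma adjusted p = 0.00543). Cdkn2b (p15) was higher in 2i (1.19, limma adjusted p = 0.00320) and LIF+PD (1.12, limma adjusted p = 0.00319) than in 2i+LIF. It was lower in CH+LIF than in 2i (-1.58) and than in LIF+PD (-1.51), and both differences passed the test.

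The genes that surround the network at the protein level changed in parts. Of 12 genes for MYC protein turnover, 5 were higher and 2 lower in CH+LIF against 2i+LIF (background 12.2% and 13.3%). Both counts fell without any 1 of the 4 cultures compared, as did the shares of all genes. In LIF+PD 3 were higher and 0 lower (14.8% and 10.4%), and in 2i 1 was higher and 0 lower (9.77% and 8.86%). The 3 fell without either 2i+LIF culture or replicate 1 of LIF+PD, as did the share of all genes. Usp36, a nucleolar deubiquitinase that stabilises MYC, was at 33.5 and 31.0 in CH+LIF against 21.0 in both 2i+LIF cultures (0.59, limma adjusted p = 0.00404), and this call held in all 18 settings. Fbxw7 itself rose in LIF+PD (17.2 against 11.2 in mean FPKM, 0.59, limma adjusted p = 0.0127), a call lost without replicate 1 of 2i+LIF or of LIF+PD. It was also higher in CH+LIF (mean 15.3, 0.43, limma adjusted p = 0.0379), a call lost without any 1 of the 4 cultures compared, and in 2i it was at 14.8 (0.38, limma adjusted p = 0.0658). Skp2, another MYC ubiquitin ligase, was at 38.5 and 38.8 in 2i against 24.0 and 22.9 in 2i+LIF (0.70, limma adjusted p = 0.00195). Gsk3a and Gsk3b, which encode the target of CH, are on this list and were called in none of the 3 comparisons with 2i+LIF. Of 9 corepressor genes, 2 were higher and 1 lower in CH+LIF (12.2% and 13.3%) and 1 was higher and 1 lower in 2i (9.77% and 8.86%). In LIF+PD limma called 0 of the 9, with 2 at an unadjusted p below 0.05. Sin3b, a scaffold for MXD proteins, was at 56.6 and 57.2 in CH+LIF against 105 to 128 in the other 6 cultures (against 2i+LIF, -1.04, limma adjusted p = 0.00125). Its paralogue Sin3a was higher in the same comparison, at 215 and 226 against 124 and 157 (0.65, limma adjusted p = 0.0295), a call lost in 5 of 18 settings, among them without replicate 1 of 2i+LIF or either CH+LIF culture. Rbbp7 rose in CH+LIF (0.66, limma adjusted p = 0.00449) and in 2i (0.76, limma adjusted p = 0.00298), and Hdac2 was lower in 2i, at 207 and 175 against 358 and 364 (-0.92, limma adjusted p = 0.00401).

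Mycl, the third MYC paralogue, was higher in the groups that have both LIF and PD. Its FPKM was 18.1 and 15.8 in 2i+LIF, 14.6 and 21.4 in LIF+PD, 8.79 and 8.39 in 2i, and 7.37 and 8.84 in CH+LIF. The 4 cultures that lack LIF or PD lay below the 4 others. Against 2i+LIF, Mycl was lower in CH+LIF (-0.98, limma adjusted p = 0.00991) and in 2i (-0.90, limma adjusted p = 0.0163), although the first call was lost without replicate 1 of either group and the second without any 1 of the 4 cultures. Mycl was listed with Mlx, Mlxip and Mlxipl of the MLX arm, in which MLX takes the place of MAX, and with the targets Txnip and Arrdc4. Of these 6 genes, 2 were higher and 1 lower in 2i against 2i+LIF (background 9.77% and 8.86%). In CH+LIF 1 was higher and 1 lower (12.2% and 13.3%), and in LIF+PD 3 were higher and 0 lower (14.8% and 10.4%). The 3 fell to 0 without replicate 2 of 2i+LIF or replicate 1 of LIF+PD and to 1 without the other culture of either group. The calls in 2i fell to 0 without either 2i+LIF culture or replicate 2 of 2i, and those in CH+LIF to 0 without replicate 1 of 2i+LIF or of CH+LIF. The shares of all genes called fell in these fits as well. The 3 in LIF+PD were the glucose sensor Mlxipl and the targets Txnip and Arrdc4. Mlxipl was at 1.59 and 2.06 against 0.804 and 0.631 (0.71, limma adjusted p = 0.0272), lost in 5 of 17 settings. Arrdc4 was at 42.1 and 41.1 against 24.8 and 20.3 (0.86, limma adjusted p = 0.0164), which was lost without replicate 2 of 2i+LIF or either culture of LIF+PD.

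For Mga, 10 genes of its PRC1.6 partners and 14 germline genes bound by such complexes were listed. Tfdp1, the dimer partner of E2F6, was at 141 and 138 in CH+LIF against 80.0 to 88.6 in the other 6 cultures (against 2i+LIF, 0.76, limma adjusted p = 0.00140). Cbx1 was higher in LIF+PD (167 against 95.5 in mean FPKM, 0.81, limma adjusted p = 0.00211) and in CH+LIF (0.60, limma adjusted p = 0.00742). In CH+LIF against 2i+LIF, 3 of the 10 partners were higher and 0 lower (12.2% and 13.3%). In LIF+PD (14.8% and 10.4%) and in 2i (9.77% and 8.86%) 1 was higher and 1 lower, near the background. Of the 14 germline genes, 11 were tested, but Smc1b and Mov10l1 reached the FPKM filter in the LIF+PD cultures alone. The 2 are therefore given as values without a test. Smc1b, a meiotic cohesin, was at 5.05 and 4.26 in LIF+PD and at 0.0696 to 0.744 in the other 6 cultures, and Mov10l1, a piRNA helicase, was at 2.83 and 1.24 and at 0.277 to 0.660. Of the 9 others, a set formed after the values were seen, 3 were higher and 0 lower in LIF+PD against 2i+LIF (background 14.8% and 10.4%): Mael, Zcwpw1 and Sycp3. Mael, of the piRNA pathway, was at 6.98 and 9.15 against 1.67 and 1.76 (1.73, limma adjusted p = 0.000589). Sycp3, of the meiotic chromosome axis, was not called without either 2i+LIF culture or without replicate 2 of LIF+PD. With TPM, 5 of the 9 were higher in LIF+PD and 4 in CH+LIF, beside 20.1% and 22.4% of all genes. In 2i against 2i+LIF, 3 of the 9 were higher and 1 lower (background 9.77% and 8.86%), and in CH+LIF 2 were higher and 1 lower (12.2% and 13.3%). Ddx4, a germ-cell helicase, was at 6.34 and 6.02 in 2i and 4.42 and 3.39 in CH+LIF against 1.08 and 1.17 in 2i+LIF. It was higher in both groups (1.76, limma adjusted p = 0.000964, and 1.20, limma adjusted p = 0.00397). Dazl, a germ-cell RNA-binding protein, was at 3.58 and 2.89 in 2i and 2.34 and 2.09 in CH+LIF against 9.92 and 7.27 in 2i+LIF. It was lower in both groups (-1.17, limma adjusted p = 0.00837, and -1.56, limma adjusted p = 0.00271), with the call in 2i lost without replicate 1 of 2i+LIF.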

How the data were processed

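RNA of 8 RGd2 cultures, 2 per condition, was sequenced from a single end. Alignment by the authors used TopHat2, the mm10 genome and annotation 75 of Ensembl, with only unique hits kept. The deposited FPKM values, per gene and culture, come with confidence bounds, and the submitters' processing notes name Cufflinks and Cuffdiff. Counts, and the authors' DESeq2 test of them, were not used here. The methods describe rRNA-depleted libraries and the labels polyA RNA. FPKM do not give read numbers, so depth is known only as a ratio between cultures, from the most frequent ratio of FPKM among low genes (11.9% to 19.4% of ratios). Whole reads were not recovered, and no counting error is given. Of the 72 member values, 71 lay inside the deposited bounds.

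Entries with 1 identifier (22 repeats) were summed. Genes that reached an FPKM of 1 in 2 or more cultures were fitted as log2(FPKM + 1), with a pseudocount of 1, in limma 3.58.1 (R 4.3.3) with a mean-variance trend and 4 group means (4 residual degrees of freedom). p-values were adjusted by Benjamini-Hochberg over the 12927 genes of each of 6 comparisons and called below 0.05. The procedure was tested on simulated data. Tables and figures were made in Python 3.11.15 with pandas 2.3.3 and matplotlib 3.10.9. Coordinates are 1-based on mm10. Overlapping exons were read from GENCODE M21.

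The members and gene lists were chosen with earlier results of these data known. Named genes were the 9 members, up to 2 rises and 2 falls called per list and comparison, the 5 genes most like Myc and Mycn, and the marker genes. Alternatives were pseudocounts of 0.1 and 5, other filters, TPM, size factors, quantile normalization, no trend, separate fits, a replicate block and each culture left out.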

Additional observations from a re-analysis of the deposited data

How the results depend on the processing

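Of 54 member differences, 13 passed the test, and 8 of these passed in every alternative: the 3 of Myc, 4 of Mycn and Mxd4 between CH+LIF and LIF+PD. The 5 others were lost in 3 to 12 alternatives. With no mean-variance trend, 1 member passed in CH+LIF against 2i+LIF and 2 in LIF+PD against 2i, beside 3005 and 3144 genes in all. With only the 2 conditions compared, 1 member passed in CH+LIF against 2i+LIF, beside 2697 genes in all. Leaving out 1 culture gave 0 members called in 2i against 2i+LIF, 1 to 3 in LIF+PD against 2i+LIF, 1 to 2 in CH+LIF against 2i+LIF and 1 to 2 in LIF+PD against 2i. It gave 2 to 3 in CH+LIF against 2i and 3 to 4 in CH+LIF against LIF+PD. A culture left alone in its group was assumed to vary like the other groups. Calls over all genes also varied between such fits, as given below.

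The sign of 11 differences, none of which passed, turned under at least 1 alternative. With TPM, against 2i+LIF, Max was at 0.0363, Mxd1 at 0.0197 and Mnt at 0.13 in LIF+PD, Max at 0.0242 and Mxi1 at 0.0288 in CH+LIF, and Mga was at 0.0863 in CH+LIF against 2i. Mxi1 in 2i against 2i+LIF was at -0.0381 with size factors and -0.0618 with quantile normalization, under which Myc in LIF+PD against 2i+LIF was at -0.0077. With 1 culture left out, Myc in LIF+PD against 2i+LIF ranged from -0.41 to 0.53, Mnt from -0.13 to 0.13 and Mxd1 from -0.15 to 0.00076. In 2i against 2i+LIF, Mnt ranged from -0.15 to 0.0149 and Mxi1 from -0.10 to 0.12. Mnt in LIF+PD against 2i ranged from -0.0635 to 0.20, and in CH+LIF against 2i Mga ranged from -0.165 to 0.0653 and Mxd3 from -0.0510 to 0.19. The causes were not tested.

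TPM moved the median of all genes by up to 0.17 (CH+LIF against 2i+LIF). The share of calls that were higher went from 52.5% to 61.6% in 2i, from 58.6% to 74.8% in LIF+PD and from 47.9% to 74.0% in CH+LIF, each against 2i+LIF, and from 44.5% to 64.0% in CH+LIF against 2i. Calls over all genes numbered 2408 to 3928 in the 6 comparisons, 1152 to 4026 with a culture left out and, in separate fits, 1500 in 2i against 2i+LIF and 1808 in CH+LIF against 2i. The labels number replicates 1 and 2 in each condition, but deviations of same-numbered cultures correlated only at -0.0283 to 0.0925. With the replicate block, the members called numbered 0, 3, 2, 1, 3 and 4 in the order of the results, and 2547 to 4105 genes in all. Depth limits the values of Mxd1 and Mxd4, the least expressed members.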

Other observations

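The genes whose levels followed Myc and Mycn most closely across the 8 cultures were picked by Pearson's r of log2(FPKM + 1) among 8804 genes with a mean FPKM of at least 5. For Myc they were D16Ertd472e (r = 0.990), Eif3j2 (0.989), Rbfa (0.979), Gemin5 (0.976) and D17H6S56E-5 (0.974). All had their highest mean in CH+LIF but changed less than Myc. Mean FPKM of Gemin5, of the SMN complex, was 33.0 in CH+LIF, 22.1 in 2i, 19.0 in LIF+PD and 17.9 in 2i+LIF. Eif3j2 has a near-identical paralogue, so its value is uncertain. For Mycn they were Atp9a (r = 0.995), Hbp1 (0.987), Btbd19 (0.987), Xrcc1 (0.984) and Gm11223 (0.983). Atp9a, a phospholipid flippase, had a mean FPKM of 24.5 in LIF+PD, 15.4 in 2i, 12.8 in 2i+LIF and 9.74 in CH+LIF, in the order of Mycn. With 8 cultures in 4 groups, such coefficients rest mainly on the group means.

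Among 12 coactivators of MYC, 2 were higher and 0 lower in CH+LIF against 2i+LIF, near the background of 12.2% and 13.3%. These were the paired helicases Ruvbl1, at 112 and 96.7 against 75.6 and 65.6 (0.56, limma adjusted p = 0.00961), and Ruvbl2 (0.35, limma adjusted p = 0.0306). Both calls were lost without replicate 2 of 2i+LIF or replicate 1 of CH+LIF, and that of Ruvbl2 in 5 further settings. In LIF+PD, limma called 0 of the 12 against 2i+LIF, with 2 at an unadjusted p below 0.05, and in 2i, Ruvbl1 was higher (0.45, limma adjusted p = 0.0253) and Wdr5 lower (-0.34, limma adjusted p = 0.0265). Ruvbl1 in 2i was lost in 4 of 18 settings (without replicate 2 of 2i+LIF or either 2i culture, and in the separate fit). Wdr5 was lost in 5 (without either 2i+LIF culture or replicate 2 of 2i, in the separate fit and with no trend).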
